A study of Mus musculus with 45 samples.

Results

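The coagulation and fibrinolysis genes of the mouse liver were followed here through acetaminophen (APAP) injury. They comprised 31 genes, chosen by symbol from the procoagulant, anticoagulant and fibrinolytic systems, and all 31 were found among the 18180 genes measured. By role, 16 were procoagulant, 8 anticoagulant and 6 belonged to the fibrinolytic system, with thrombospondin 1 (Thbs1) kept apart. Male C57Bl/6J mice, 8 weeks old and fasted for 16 h, received APAP by oral gavage at 300 mg/kg or the vehicle alone, 1% hydroxyethylcellulose. Livers were taken at 3, 6, 9 or 24 h, and those of a further group, fasted in the same way but not dosed, at 0 h. The paper states that food was given again after the fast. Each of the 9 groups held 5 mice, giving 45 Affymetrix Mouse Genome 430 2.0 arrays, 1 per liver. The question was how liver transcripts responded over time to a dose that injures the mouse liver, and each APAP group was compared with the vehicle group of the same time.

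Blood clots when tissue factor meets factor VII, or when the contact proteins factor XII, prekallikrein and kininogen activate factor XI, and both routes lead through factor X to thrombin, which turns fibrinogen into fibrin. Antithrombin, heparin cofactor II, the tissue factor pathway inhibitors and the thrombomodulin and protein C system restrain this cascade, and plasmin, made from plasminogen by tissue-type or urokinase-type activator, dissolves the clot. Hepatocytes secrete most of the circulating factors, whereas thrombomodulin, the protein C receptor, von Willebrand factor and factor VIII are made chiefly by endothelium, and the urokinase receptor is known from leukocytes and injured tissue.

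Values are log2 intensities summarized per gene by RMA, a method that corrects background, normalizes the arrays and combines probes, and replicate values are given below in the order 1 to 5. A gene was called when the Benjamini-Hochberg adjusted p from limma, taken over all 18180 genes, was under 0.05 and the change was at least 1.5-fold. Arrays of the same group correlated at 0.98 to 0.998, and no pair was identical. The lowest median correlation of an array with its group was 0.9817 at 24 h and 0.9856 at 6 h after APAP. In every other group it was at least 0.9923. In the APAP group at 24 h, replicate 1 had a median correlation of 0.982 with the others, against 0.991 to 0.992 for replicates 2 to 5, and a principal component analysis of all arrays put replicates 1 and 3 lowest in the group on its second axis, at -47.3 and -41.7, with the rest at -22.2 to -24.6. Procr and Thbs1, the members called at 24 h, and the called differences of the APAP effect between times are therefore also given without those 2 arrays. Other differences at 24 h rest on all 5 APAP mice unless stated. The 7 hepatocyte markers found, among them Alb, the gene of serum albumin, had a mean level of 14.26 to 14.41 on every array. None was called at any time, and Hnf4a was higher at an adjusted p under 0.05 at 3 and 6 h. At 24 h the mean level was 14.257 to 14.333 after APAP and 14.335 to 14.355 after vehicle, without overlap. These levels lie above the 99th percentile of every array, 13.28 to 13.44, and whether the scale is compressed there was not tested. Because whole liver was measured, fewer cells of a type and less RNA per cell cannot be told apart.

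Most of the coagulation genes stayed within 1.5-fold of vehicle, and the called changes lay in 8 of them. At 3 h, 2 of 31 were called higher after APAP and 0 lower, where 1.68% and 2.34% of all genes were called. At 6 h the counts were 4 higher and 4 lower (2.29% and 3.03% of all genes), at 9 h they were 4 and 3 (2.49% and 2.05%), and at 24 h they were 2 and 0 (2.86% and 1.82%). Across the 4 times, 8 members were called at least once, 4 of them higher (Thbs1, Procr, Thbd and Plaur) and 4 lower (F11, Klkb1, Tfpi2 and Serpind1). No member was called in both directions, and 23 were called at no time. The share of all genes called at least once was not counted, so these totals have no background beside them. The median size of the log2 fold change was 0.17, 0.16, 0.20 and 0.17 over the members at 3, 6, 9 and 24 h, beside 0.10, 0.10, 0.10 and 0.14 over all genes.

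Counting every member with an adjusted p under 0.05, whatever its size, gave 4 higher and 5 lower at the first time (8.13% and 14.2% of all genes). The counts were 6 and 12 at 6 h (10.4% and 17%), 7 and 9 at 9 h (13.4% and 15%), and 7 and 3 by 24 h (13.4% and 16.1%). At 3, 6, 9 and 24 h the values of the APAP and vehicle mice did not overlap for 8, 16, 16 and 7 members, a separation found for 16.1%, 21.5%, 21.2% and 20.3% of all genes.

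**Figure D1:**
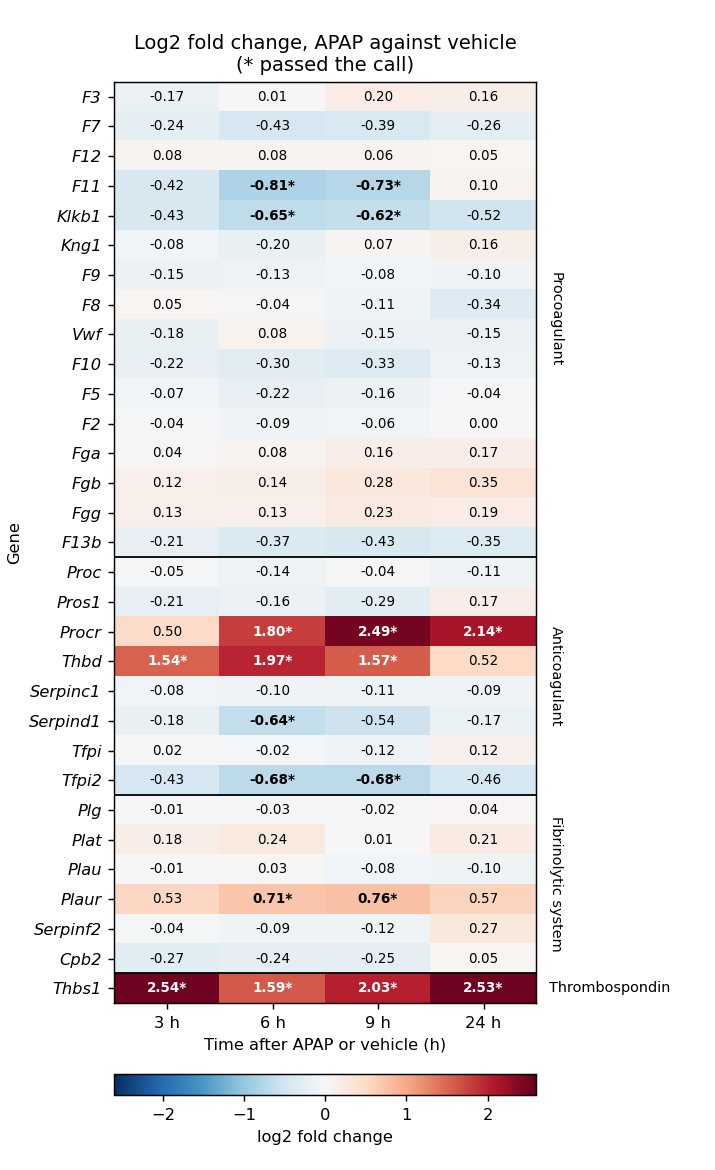
Log2 fold change of APAP against vehicle for each of the 31 genes (rows, by role) at 3, 6, 9 and 24 h (columns), with 5 mice per group; red is higher and blue lower after APAP, and an asterisk marks a called gene. Thbs1 was marked at all 4 times, Procr and Thbd at 3, F11, Klkb1, Tfpi2 and Plaur at 2, and Serpind1 at 1.

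Of the 16 procoagulant genes, 0 were called higher at any time and 2 were called lower, at 6 and 9 h. Both encode proteins of the contact and intrinsic route. F11 encodes factor XI, the protease that activates factor IX, and Klkb1 encodes prekallikrein, which activates factor XII. The pair are next to each other on chromosome 8 in the RefSeq annotation of GRCm38.p6.

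F11 was called lower than vehicle at 6 and 9 h, but the vehicle mice did not stay at the untreated level. Untreated mice had log2 values of 10.13, 10.40, 10.50, 10.21 and 10.44. At 3 h the values were 10.44, 10.21, 10.05, 10.20 and 10.23 after vehicle and 9.93, 9.77, 9.71, 9.36 and 10.27 after APAP. The groups overlapped at this time, with a log2 fold change of -0.42 (SE 0.14, adjusted p = 0.0416), short of the fold required. At 6 h the vehicle values were 10.96, 10.68, 11.15, 10.94 and 10.69 and the APAP values 10.40, 9.94, 10.21, 9.72 and 10.11. At 9 h they were 10.99, 11.18, 11.10, 10.99 and 10.93 and 10.11, 10.37, 10.37, 10.53 and 10.15. At both times every APAP mouse lay below every vehicle mouse, with log2 fold changes of -0.81 (SE 0.13, adjusted p = 0.000839) and -0.73 (SE 0.081, adjusted p = 6.10e-05), or 1.75-fold and 1.66-fold lower. At 24 h the vehicle values were 11.28, 11.41, 11.29, 11.51 and 11.24 and the APAP values 11.36, 11.71, 11.72, 11.07 and 11.37. The groups overlapped again, and the difference of 0.10 (SE 0.12, adjusted p = 0.511) had an interval of -0.16 to 0.36.

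Against the untreated mice, F11 in vehicle mice was called higher at 9 h, by 0.70 (SE 0.077, adjusted p = 3.13e-05), and at 24 h, by 1.01 (SE 0.078, adjusted p = 1.16e-06), the latter a 2.02-fold rise. At 6 h the rise was 0.55 (SE 0.099, adjusted p = 0.00173), under the fold required, and it was called when vehicle replicate 2 or 5 or untreated replicate 3 was left out. The APAP values at 9 h, 10.11 to 10.53, covered the range of the untreated mice, 10.13 to 10.50. At 24 h both treated groups lay above every untreated mouse. The APAP effect at 24 h minus that at 9 h was 0.84 (SE 0.18, adjusted p = 0.00180), and it was 0.77 (adjusted p = 0.00771) without APAP replicates 1 and 3 at 24 h. Over all genes, 1.74% were called higher and 1.24% lower in this contrast, and of the members F11 was called higher and none lower.

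Klkb1 was also lower at 6 and 9 h, and no vehicle group differed from the untreated mice by the call. At 6 h the log2 values were 12.36, 11.99, 12.41, 12.35 and 12.35 after vehicle and 11.81, 11.44, 11.71, 11.72 and 11.52 after APAP. At 9 h they were 12.19, 12.21, 12.30, 12.17 and 12.09 and 11.37, 11.73, 11.65, 11.86 and 11.24. The groups did not overlap at either time, and the log2 fold changes were -0.65 (SE 0.093, adjusted p = 0.000445) and -0.62 (SE 0.10, adjusted p = 0.000882), or 1.57-fold and 1.54-fold lower. The call at 9 h was close to the fold required and was lost without APAP replicate 1 (-0.57) or replicate 5 (-0.54).

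Klkb1 was not called at 3 or 24 h, although its fall at 24 h was the largest among the members at that time. At 3 h the values were 12.12, 12.18, 12.11, 11.96 and 11.72 after vehicle and 11.83, 11.43, 11.75, 10.88 and 12.08 after APAP, and at 24 h they were 12.29, 12.46, 12.49, 12.33 and 12.34 and 11.002, 12.40, 11.82, 12.07 and 12.04. The groups overlapped at both times, with APAP replicates 1, 3 and 5 at 3 h and replicate 2 at 24 h inside the vehicle range. The log2 differences were -0.43 (SE 0.18, adjusted p = 0.117) and -0.52 (SE 0.21, adjusted p = 0.0752). The difference at 24 h was called when APAP replicate 2 was left out. Without APAP replicates 1 and 3, the lowest in the group at 24 h, it was not called. Untreated mice had 11.93, 12.41, 12.47, 11.95 and 12.28, and vehicle differed from them by -0.19, 0.08, -0.01 and 0.18 at the 4 times.

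The windows around the transcription starts of these neighbouring genes are shown because both genes were called lower than vehicle at 6 and 9 h. They are RefSeq sequences of GRCm38.p6, minus strand, from 250 bases before to 50 after the start (chr8:45261982-45262281 for F11 and chr8:45294786-45295085 for Klkb1). Neither window holds TGANTCA, the letters of the AP-1 site, on either strand, nor TGACGTCA, the cAMP response element.
F11: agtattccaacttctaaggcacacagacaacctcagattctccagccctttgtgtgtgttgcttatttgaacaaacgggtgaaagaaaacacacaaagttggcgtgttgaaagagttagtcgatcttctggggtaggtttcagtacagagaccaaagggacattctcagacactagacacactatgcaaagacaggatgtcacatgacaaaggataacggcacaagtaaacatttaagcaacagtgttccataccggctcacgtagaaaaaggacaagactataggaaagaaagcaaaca
Klkb1: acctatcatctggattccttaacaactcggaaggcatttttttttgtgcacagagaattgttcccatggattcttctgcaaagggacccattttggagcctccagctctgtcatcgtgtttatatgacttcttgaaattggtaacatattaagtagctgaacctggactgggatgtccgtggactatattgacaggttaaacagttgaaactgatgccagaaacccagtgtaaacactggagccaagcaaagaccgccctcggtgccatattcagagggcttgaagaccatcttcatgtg

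The other 5 genes of the contact and intrinsic group were called at no time. F12, the gene of factor XII, differed from vehicle by 0.05 to 0.08 on the log2 scale, and F9, of factor IX, by -0.15 to -0.08. F8, which encodes the cofactor of factor IX, had its largest difference at 24 h, -0.34 (SE 0.11, adjusted p = 0.0392). Vwf, the gene of the factor VIII carrier, had -0.18, 0.08, -0.15 and -0.15 at the 4 times. Its interval at 24 h, -0.62 to 0.32, was the only one of 92, over the 23 members called at no time, to reach past 1.5-fold. Kng1, which encodes kininogen, had -0.08, -0.20, 0.07 and 0.16, and it is uncertain because its neighbour Kng2 is a close copy whose transcripts the probes may share.

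The genes that start the cascade and those of its common route stayed within 1.5-fold of vehicle. F3, the gene of tissue factor, was dim, with group means of 5.88 to 6.57. It had log2 differences of -0.17, 0.01, 0.20 and 0.16, with adjusted p values of 0.319, 0.962, 0.439 and 0.493. In the APAP group at 24 h, F3 was 6.78 in replicate 1 and 5.78 to 5.94 in the others. F7, which encodes factor VII, was 11.61 to 11.69 after APAP at 9 h and 11.92 to 12.19 after vehicle. Those groups did not overlap, with a difference of -0.39 (SE 0.052, adjusted p = 0.000195) that stayed under the fold required, as did -0.43 (SE 0.065, adjusted p = 0.000640) at 6 h. F10, of factor X, was lower in the same way, by -0.30 (SE 0.048, adjusted p = 0.000971) and -0.33 (SE 0.062, adjusted p = 0.00197). F5, the cofactor of factor X, had -0.22 (SE 0.039, adjusted p = 0.00182) at 6 h and -0.16 (SE 0.044, adjusted p = 0.0195) at 9 h. For F2, the gene of prothrombin, the differences were -0.09 to 0.0028, and the adjusted p was above 0.05 at all 4 times.

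Fibrinogen transcripts were above vehicle by less than 1.5-fold, and the gene of a factor XIII subunit was below it by less than 1.5-fold. Fga, Fgb and Fgg encode the 3 chains of fibrinogen and lie side by side on chromosome 3. Fgb at 24 h was 14.20, 14.20, 14.34, 14.24 and 14.29 after vehicle and 14.72, 14.66, 14.65, 14.52 and 14.49 after APAP. Every APAP mouse was above every vehicle mouse, and the difference of 0.35 (SE 0.057, adjusted p = 0.00219), 1.28-fold, was the largest upward one among the members called at no time. For Fga the difference at 24 h was 0.17 (SE 0.048, adjusted p = 0.0273), and for Fgg it was 0.19 (SE 0.049, adjusted p = 0.0175). At 9 h the 3 genes had 0.16 (SE 0.051, adjusted p = 0.0307) for Fga, 0.28 (SE 0.055, adjusted p = 0.00262) for Fgb and 0.23 (SE 0.056, adjusted p = 0.00952) for Fgg. The controls had moved by then, with means of 14.1, 14.162 and 14.22 after vehicle at 9 h and 14.225, 14.318 and 14.411 in untreated mice. The APAP means at 9 h were 14.263, 14.44 and 14.446. Vehicle was below untreated at an adjusted p under 0.05 for Fgb and Fgg at 9 h. The part of this shift in the differences between APAP and vehicle was not tested. The effect on Fgb was greater at 24 h than at 3 h by 0.23 (SE 0.066, adjusted p = 0.00686), under the fold required.

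F13b, which encodes the carrier subunit of factor XIII, the enzyme that crosslinks fibrin, was lower after APAP without overlap at all 4 times. At 9 h it was 12.31, 12.39, 12.36, 12.27 and 12.13 after vehicle and 11.75, 11.90, 11.88, 11.94 and 11.85 after APAP. The log2 fold changes were -0.21, -0.37, -0.43 and -0.35 at 3, 6, 9 and 24 h, with adjusted p values of 0.0134, 0.000759, 0.000214 and 0.0272, and none reached 1.5-fold. Group means of F2, Fga, Fgb, Fgg, Serpinc1, Serpinf2 and Plg all lay above 13.28, the lowest 99th percentile of any array, and whether the scale is compressed at that height was not tested.

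**Figure D2:**
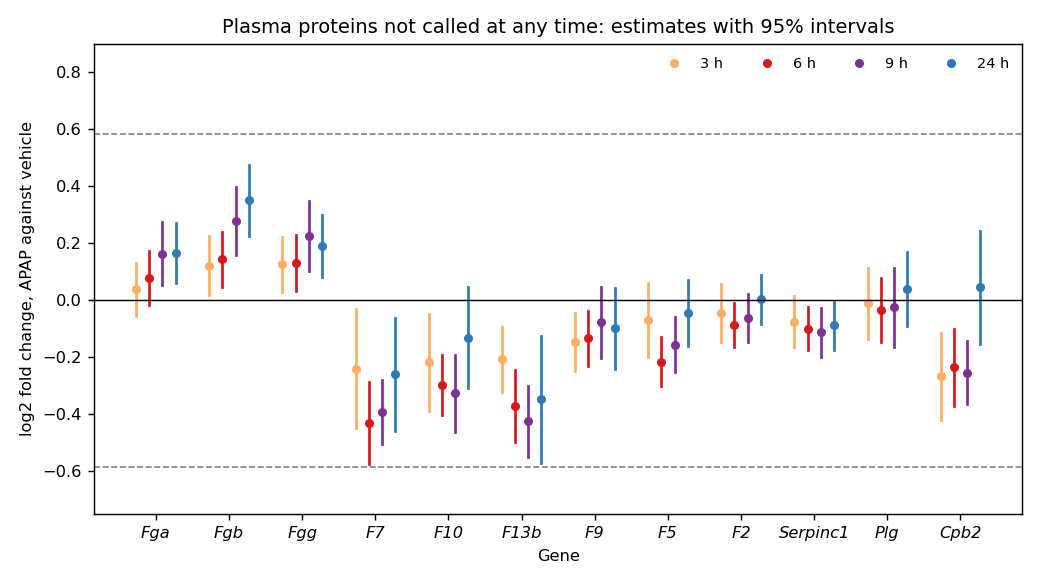
Log2 fold change of APAP against vehicle (points) with 95% intervals from limma (lines) for 12 genes of secreted plasma proteins at 3, 6, 9 and 24 h, 5 mice per group; dashed lines mark 1.5-fold in each direction. All intervals shown lay between -0.57 and 0.48, inside the dashed lines.

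The anticoagulant genes held members called in both directions. Of the 8, Thbd was the 1 called higher at 3 h and Procr the 1 at 24 h, while both were higher at 6 and 9 h. Serpind1 and Tfpi2 were called lower at 6 h and Tfpi2 alone at 9 h. The 2 called higher encode membrane proteins of the protein C system, and the 2 called lower encode secreted inhibitors.

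Thbd encodes thrombomodulin, the receptor that turns thrombin toward activating protein C, and it was higher from 3 to 9 h. Untreated mice had 7.88, 8.54, 7.90, 8.05 and 8.06. At 3 h the log2 values were 8.23, 8.32, 7.87, 8.34 and 8.43 after vehicle and 9.59, 9.90, 9.44, 9.62 and 10.34 after APAP. At 6 h they were 7.81, 7.55, 8.21, 7.96 and 7.58 and 9.95, 9.09, 9.84, 11.01 and 9.08. APAP mice lay above all vehicle mice at both times, with differences of 1.54 (SE 0.15, adjusted p = 1.98e-05) and 1.97 (SE 0.32, adjusted p = 0.000979), which are 2.91-fold and 3.92-fold. At 9 h the vehicle values were 7.82, 7.90, 7.65, 8.04 and 7.80 and the APAP values 9.68, 9.64, 9.29, 9.09 and 9.35. The groups again did not overlap, and the difference was 1.57 (SE 0.11, adjusted p = 2.13e-06), 2.97-fold.

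At 24 h Thbd was 7.94, 8.03, 7.76, 8.19 and 7.78 after vehicle and 10.24, 7.77, 8.52, 7.94 and 7.81 after APAP. Replicates 1 and 3 were above the vehicle range and the other 3 within it, and the difference of 0.52 (SE 0.40, adjusted p = 0.330) had an interval of -0.37 to 1.40. The effect at 24 h minus that at 3 h was -1.02 (SE 0.43, adjusted p = 0.0559), and minus that at 9 h it was -1.05 (SE 0.43, adjusted p = 0.107), neither called. Both were called when replicate 1 of the APAP group at 24 h, or replicates 1 and 3, were left out, and under array weights. The first was also called in 1 model over all 45 arrays and without APAP replicate 4 or 5 at 6 h. Vehicle differed from untreated by -0.26 to 0.15, not called at any time.

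Procr encodes the endothelial protein C receptor, which presents protein C to thrombomodulin, and its rise came later. Untreated mice had 6.20, 6.55, 6.09, 6.20 and 5.96. At 3 h the values were 6.00, 6.16, 6.04, 6.14 and 6.45 after vehicle and 6.45, 7.26, 6.48, 6.22 and 6.90 after APAP. The groups overlapped, and the difference of 0.50 (SE 0.17, adjusted p = 0.0463) was under the fold required. It was called when APAP replicate 4 was left out, as was Plaur, which brought the count at 3 h from 2 to 4. At 6 h Procr was 6.10, 6.32, 6.19, 5.90 and 5.73 after vehicle and 8.07, 8.01, 8.70, 7.77 and 6.68 after APAP. At 9 h it was 6.05, 6.06, 6.13, 6.30 and 6.47 and 8.93, 8.73, 8.66, 8.75 and 8.41, and at 24 h it was 6.06, 5.87, 5.96, 5.96 and 5.92 and 9.20, 6.62, 8.08, 8.21 and 8.35. From 6 h on, every APAP mouse was above every vehicle mouse, although replicate 5 at 6 h and replicate 2 at 24 h were the lowest APAP values.

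The log2 fold changes of Procr were 1.80 (SE 0.30, adjusted p = 0.00105) at 6 h, 2.49 (SE 0.10, adjusted p = 2.04e-08) at 9 h and 2.14 (SE 0.36, adjusted p = 0.00259) at 24 h, or 3.48-fold, 5.63-fold and 4.40-fold. Without APAP replicates 1 and 3 the value at 24 h was 1.77 (adjusted p = 0.00598). The effect at 24 h exceeded that at 3 h by 1.63 (SE 0.40, adjusted p = 0.00163), or 1.27 (adjusted p = 0.0129) without those 2 mice. Of the 31 members, Procr was called higher in this contrast and none lower, where 6.03% of all genes were called higher and 2.21% lower. F11 was called there as well when APAP replicate 5 at 3 h or replicate 4 at 24 h was left out, and Thbs1 was called lower without replicates 1 and 3 at 24 h. The effect of APAP on Procr differed between 24 and 9 h by -0.36 (SE 0.40, adjusted p = 0.603). Vehicle and untreated mice had mean values between 5.95 and 6.20, under 6.43, the highest lower quartile of the arrays. RMA gives no detection call, so the size of the fold against so dim a control is uncertain.

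**Figure D3:**
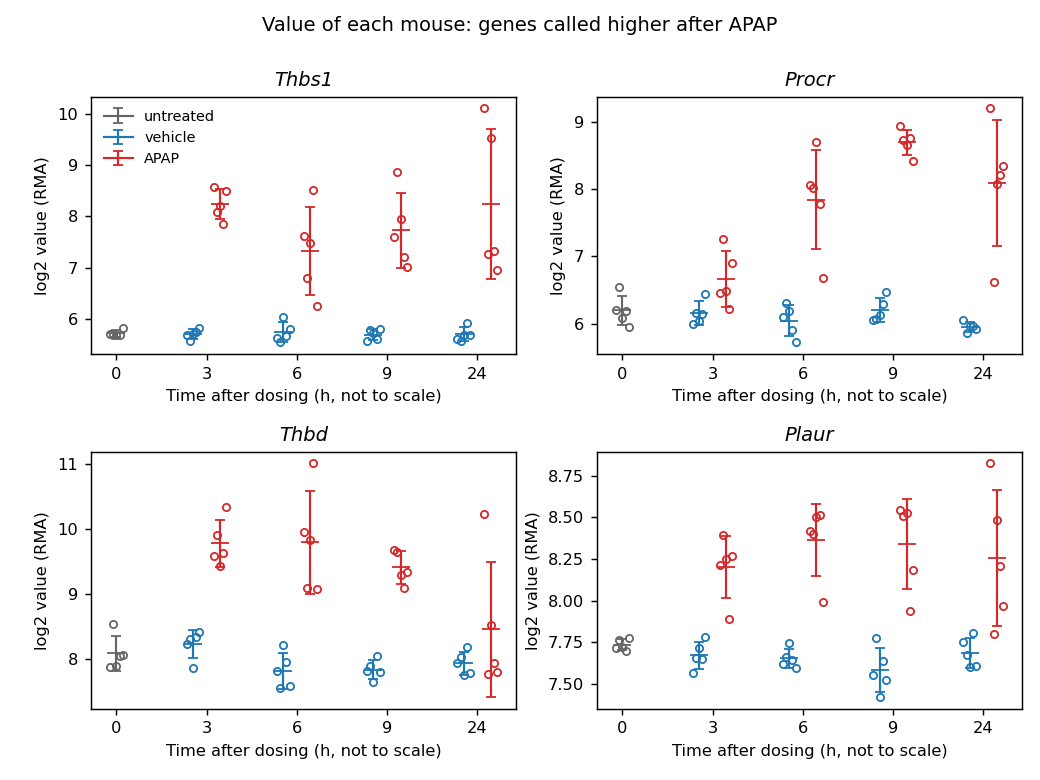
Log2 values of Thbs1, Procr, Thbd and Plaur in each mouse (open circles) by time in h, with the mean and SD of the 5 mice per group (lines); grey is untreated, blue vehicle and red APAP, and each panel has its own y axis. APAP values of Thbs1 lay above all vehicle values at every time, and those of Thbd at 3, 6 and 9 h but not at 24 h.

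Among the markers of sinusoidal endothelium, Lyve1 was called higher at each time and the other 7 of 8 were not. Short of the fold required, at an adjusted p under 0.05 by limma, Pecam1 and Cdh5 were higher at 3, 6 and 9 h. Stab1 was so higher at 6 and 9 h and Clec4g at 9 h, whereas Kdr was lower at 6 h and Clec4g at 24 h. The mean level of the 8 was 9.36 to 9.52, 9.44 to 9.62, 9.53 to 9.65 and 8.94 to 9.71 in APAP mice at 3, 6, 9 and 24 h. In vehicle mice it was 9.25 to 9.34, 9.18 to 9.51, 9.18 to 9.26 and 9.07 to 9.13, and in untreated mice 9.21 to 9.50. The APAP and vehicle levels did not overlap at 3 and 9 h and overlapped at 6 and 24 h. The controls moved as well, since Lyve1 was called lower in vehicle than in untreated mice at 9 h (-0.60) and 24 h (-1.31). The part of this list in the values of Thbd and Procr was not tested.

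Tfpi2 encodes tissue factor pathway inhibitor 2, a Kunitz-type inhibitor of plasmin and other serine proteases, and it was lower at 6 and 9 h. Untreated mice had 11.38, 11.49, 11.32, 11.44 and 11.35. At 6 h the values were 11.58, 11.71, 11.64, 11.59 and 11.36 after vehicle and 11.01, 11.05, 10.85, 10.63 and 10.93 after APAP. At 9 h they were 11.69, 11.86, 11.64, 11.67 and 11.57 and 10.83, 11.04, 11.09, 10.99 and 11.09. At both times every APAP mouse was below every vehicle mouse and every untreated mouse. The differences from vehicle were -0.68 (SE 0.087, adjusted p = 0.000224) and -0.68 (SE 0.066, adjusted p = 2.53e-05), or 1.61-fold and 1.60-fold lower. At 3 h the values were 11.69, 11.49, 11.17, 11.52 and 11.65 and 10.98, 11.16, 10.89, 11.13 and 11.18, and the difference was -0.43 (SE 0.095, adjusted p = 0.00575), with replicate 5 of the APAP group just inside the vehicle range.

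At 24 h Tfpi2 was 12.50, 12.52, 12.32, 12.43 and 12.25 after vehicle and 11.37, 12.28, 12.06, 11.94 and 12.08 after APAP. Replicate 2 of the APAP group reached the vehicle range, and the difference of -0.46 (SE 0.14, adjusted p = 0.0352) was under the fold required. Vehicle itself was above untreated at 24 h by 1.01 (SE 0.059, adjusted p = 1.30e-07), 2.01-fold, with no overlap. At 3, 6 and 9 h the vehicle mice differed from untreated by 0.11, 0.18 and 0.29, not called.

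Serpind1, the gene of the thrombin inhibitor heparin cofactor II, was called lower at 6 h alone. Its values were 13.19, 13.14, 13.22, 13.14 and 13.13 after vehicle and 12.69, 12.61, 12.75, 12.35 and 12.20 after APAP. The groups did not overlap, and the difference was -0.64 (SE 0.096, adjusted p = 0.000570), 1.56-fold lower. It was no longer called without APAP replicate 5 (-0.56) or under array weights (-0.58). At 9 h the vehicle mice had 13.11 to 13.22 and the APAP mice 12.41 to 12.86, a difference of -0.54 (SE 0.074, adjusted p = 0.000249) that was called only when APAP replicate 2 was left out. The difference was -0.18 at 3 h and -0.17 at 24 h. Vehicle was above untreated by 0.38 (SE 0.094, adjusted p = 0.0129) at 6 h and 0.38 (SE 0.094, adjusted p = 0.00959) at 9 h, under the fold required. Against untreated mice, 12.47 to 13.02, the APAP values at 6 h, 12.20 to 12.75, overlapped.

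**Figure D4:**
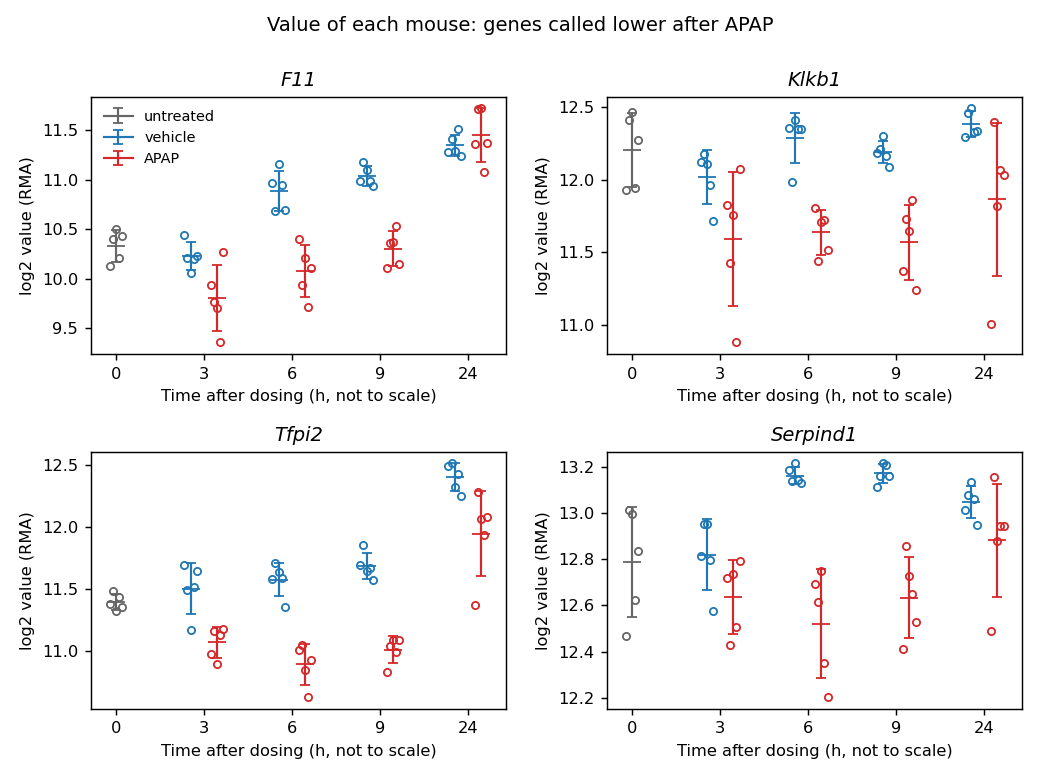
Log2 values of F11, Klkb1, Tfpi2 and Serpind1 in each mouse (open circles) by time in h, with the mean and SD of the 5 mice per group (lines); grey is untreated, blue vehicle and red APAP, and each panel has its own y axis. At 6 and 9 h the APAP and vehicle values of all 4 genes do not overlap, and the vehicle values of F11 and Tfpi2 at 24 h lie above the untreated ones.

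The other anticoagulant genes were called at no time. Proc, which encodes protein C, differed from vehicle by -0.14 to -0.04. Pros1, of its cofactor protein S, had differences of -0.29 to 0.17 and no adjusted p under 0.05. Serpinc1, the gene of antithrombin, was tightly grouped, with APAP values of 14.14 to 14.21 at 6 h against 14.25 to 14.31 after vehicle. APAP and vehicle did not overlap for Serpinc1 at any time, yet the differences were only -0.08, -0.10, -0.11 and -0.09. Tfpi, of the inhibitor of tissue factor and factor VII, had -0.12 to 0.12.

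In the fibrinolytic system, 1 of 6 genes was called, and it was higher at 6 and 9 h. Plaur encodes the receptor that holds urokinase at the cell surface. At 6 h its values were 7.62, 7.66, 7.74, 7.64 and 7.60 after vehicle and 8.42, 8.40, 8.50, 8.51 and 7.99 after APAP. At 9 h they were 7.56, 7.77, 7.42, 7.64 and 7.52 and 8.54, 8.51, 8.53, 7.94 and 8.18. The groups did not overlap, and the differences were 0.71 (SE 0.090, adjusted p = 0.000215) and 0.76 (SE 0.11, adjusted p = 0.000448), the latter 1.69-fold. At 3 h it was 7.57, 7.65, 7.72, 7.65 and 7.78 after vehicle and 8.21, 8.39, 8.25, 7.89 and 8.27 after APAP, without overlap, and the difference of 0.53 (SE 0.083, adjusted p = 0.000623) was just under the fold required.

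At 24 h Plaur was 7.75, 7.67, 7.60, 7.81 and 7.61 after vehicle and 8.82, 7.80, 8.49, 8.21 and 7.97 after APAP, where replicate 2 lay within the vehicle range. The difference of 0.57 (SE 0.16, adjusted p = 0.0256) was not called, but was when APAP replicate 2 or 5, or vehicle replicate 1 or 4, was left out. Without APAP replicates 1 and 3, the highest in the group, it was not called. Untreated mice had 7.72, 7.76, 7.72, 7.70 and 7.78, and vehicle differed from them by -0.15 to -0.05. At 6 h, when Plaur was called, none of the leukocyte markers examined was. Lgals3, Csf3r and Mmp8 were nonetheless higher at that time at an adjusted p under 0.05 by limma, short of the fold required. The log2 differences at 6 h were 0.09 to 1.01 for the neutrophil markers and -0.16 to 1.12 for those of monocytes and macrophages. Of 7 monocyte and macrophage markers found, 0, 0, 2 and 4 were called higher at 3, 6, 9 and 24 h, and their mean level was 7.16 to 7.25, 7.13 to 7.76, 7.48 to 8.39 and 8.57 to 9.55 after APAP against 7.10 to 7.36 over all vehicle mice. Of 5 neutrophil markers, 2, 0, 2 and 2 were called higher, with mean levels of 7.91 to 8.25, 7.68 to 8.55, 8.13 to 8.82 and 7.86 to 9.92 against 7.43 to 7.94. Their part in the values of Plaur was not tested.

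Windows around the transcription starts of Procr and Plaur are shown because both genes were called higher at 6 and 9 h and both windows hold TGACTCA, an exact form of the AP-1 site that Fos and Jun proteins bind. They are RefSeq sequences of GRCm38.p6 on the plus strand (chr2:155750967-155751266 for Procr and chr7:24462233-24462532 for Plaur), from 250 bases before to 50 after the start. Capitals mark TGACTCA, which begins 154 bases before the start of Procr and 69 before that of Plaur, and, in Plaur, GCGGGGGCG, a letter run that early growth response proteins bind, 109 bases before the start.
Procr: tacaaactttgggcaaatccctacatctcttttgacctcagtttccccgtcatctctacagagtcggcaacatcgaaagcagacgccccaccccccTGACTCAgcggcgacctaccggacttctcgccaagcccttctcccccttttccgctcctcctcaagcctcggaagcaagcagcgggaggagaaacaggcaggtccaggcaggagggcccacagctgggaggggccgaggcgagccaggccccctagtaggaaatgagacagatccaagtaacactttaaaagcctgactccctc
Plaur: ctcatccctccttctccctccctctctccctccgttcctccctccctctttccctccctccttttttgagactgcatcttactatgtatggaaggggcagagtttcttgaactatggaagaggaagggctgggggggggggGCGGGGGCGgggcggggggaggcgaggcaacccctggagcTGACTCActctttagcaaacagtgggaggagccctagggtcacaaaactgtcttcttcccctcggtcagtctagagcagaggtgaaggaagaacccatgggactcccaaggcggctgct

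TGACTCA, read on either strand, occurs in 5.2% of 32851 mouse promoter windows of this length, and TGANTCA, which includes it and is its own reverse complement, in 7.81%. Of the 31 genes, 23 matched the table by symbol, and Plat, Kng1, Thbs1, Plg, Thbd, Plau, Proc and Vwf did not. Among the 23, TGACTCA occurs in 4, F3, Fgb, Plaur and Procr, and TGANTCA also in F2 and Tfpi2. F3, Fgb and F2 were called at no time and Tfpi2 was called lower, so the letters were not confined to the genes that rose. GCGGGGGCG or GCGTGGGCG, on either strand, occurs in 3.47% of all windows and in those of Plaur and Tfpi2.

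The remaining fibrinolytic genes were called at no time. Plg, the gene of plasminogen, had differences of -0.03 to 0.04, and the activator genes Plat and Plau had 0.01 to 0.24 and -0.10 to 0.03. Plat, of tissue-type activator, was 7.76 in APAP replicate 1 at 24 h and 6.89 to 7.13 in the other 4. Plau, of urokinase, was 6.20 to 6.54 on all arrays, and at least 1 of its control means was under the highest lower quartile of the arrays. Serpinf2 encodes the plasmin inhibitor alpha-2-antiplasmin and was above vehicle at 24 h by 0.27 (SE 0.074, adjusted p = 0.0206). Its effect at 24 h exceeded that at 9 h by 0.39 (SE 0.079, adjusted p = 0.000759), under the fold required. Cpb2, of the carboxypeptidase that protects fibrin from plasmin, was below vehicle by -0.27 (SE 0.071, adjusted p = 0.0166), -0.24 (SE 0.061, adjusted p = 0.0138) and -0.25 (SE 0.050, adjusted p = 0.00258) at 3, 6 and 9 h, with 0.05 at 24 h.

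Thbs1 encodes thrombospondin 1, a matrix glycoprotein also released by platelets, and it was the member called at all 4 times. Untreated mice had 5.71, 5.69, 5.68, 5.69 and 5.83. At 3 h the values were 5.69, 5.57, 5.70, 5.75 and 5.82 after vehicle and 8.57, 8.08, 8.20, 7.86 and 8.50 after APAP. At 6 h they were 5.63, 5.55, 6.05, 5.67 and 5.80 and 7.61, 6.80, 7.48, 8.51 and 6.25. Every APAP mouse was above every vehicle mouse, but the spread at 6 h was wider, with an SD of 0.856 against 0.294 at 3 h. At 9 h the vehicle values were 5.57, 5.78, 5.73, 5.61 and 5.79 and the APAP values 7.60, 8.86, 7.95, 7.21 and 7.01. At 24 h they were 5.61, 5.58, 5.69, 5.93 and 5.70 and 10.10, 7.27, 9.52, 7.32 and 6.94. The groups stayed apart, and at 24 h replicates 1 and 3 were far above the other 3 APAP mice.

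The log2 fold changes of Thbs1 were 2.54 (SE 0.12, adjusted p = 2.72e-08), 1.59 (SE 0.34, adjusted p = 0.00464), 2.03 (SE 0.27, adjusted p = 0.000213) and 2.53 (SE 0.56, adjusted p = 0.00908) at 3, 6, 9 and 24 h, or 5.80-fold, 3.01-fold, 4.08-fold and 5.79-fold. Without replicates 1 and 3 the value at 24 h was 1.48 (adjusted p = 4.09e-05), so the gene stayed called and the change was more than 1.5 times smaller. Vehicle differed from untreated by -0.02 to 0.02, and these control means were under the lower quartile of the arrays, which leaves the size of the fold uncertain. The effect at 24 h minus that at 3 h was -0.0018 (SE 0.57, adjusted p = 0.998), with an interval of -1.15 to 1.15. Without replicates 1 and 3 of the APAP group at 24 h, Thbs1 was called lower in this contrast. Of 7 platelet markers, Ppbp was called higher at 3 h and none at the other times, and their mean level at 3 h was 7.14 to 7.55 after APAP against 6.94 to 7.01 after vehicle. Short of the fold required, at an adjusted p under 0.05 by limma, Pf4, Gp1bb and Itga2b were higher at 3 h. Ppbp and Gp1bb were so higher at 6 h and Pf4 at 9 h, and Gp1bb was lower at 24 h. The part of platelets in the values of Thbs1 was not tested.

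Vehicle mice were set against untreated mice to see whether the controls kept to the level at 0 h. Vehicle, the return of food and elapsed time cannot be told apart in this comparison. Of the 31 members, 0 were called higher at 3 and 6 h (1.14% and 1.71% of all genes), 1 at 9 h (2.03%) and 2 at 24 h (2.31%), namely F11 and Tfpi2 as above. None was called lower at 3, 6, 9 or 24 h, where 0.853%, 1.19%, 1.84% and 2.09% of all genes were. By an unadjusted p under 0.05, 2, 7, 15 and 11 members differed in either direction, where 26.1%, 33.6%, 33.3% and 33.7% of all genes did. Changes under the fold required included Fgg at 9 h (-0.19 (SE 0.048, adjusted p = 0.0105)), F12 at 24 h (-0.24 (SE 0.048, adjusted p = 0.00214)) and F9 at 24 h (-0.27 (SE 0.047, adjusted p = 0.000969)). Every APAP effect above was a difference from the vehicle group of its own time, and for some genes the untreated values were set beside it.

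A wider list of 29 genes of the same pathway, of which 26 were found, held protease inhibitors, plasminogen-binding proteins, the vitamin K cycle and thrombin receptors. By limma, 0 of the 26 were called higher at 3 and at 6 h, F13a1 was at 9 h, and F13a1, Anxa2 and Serpina10 were at 24 h. Anxa2 was called lower at 3 and 6 h and Plgrkt, the gene of a plasminogen receptor, at 6 h, whereas 0 were lower at 9 and 24 h. An unadjusted p under 0.05, in either direction, was found for 10, 13, 12 and 11 of the 26 at the 4 times and for 34.6%, 37.6%, 38% and 44.8% of all genes. At an adjusted p under 0.05, whatever the size, 0, 0, 3 and 6 of the 26 were higher and 8, 10, 8 and 3 lower. Of all genes, 8.13%, 10.4%, 13.4% and 13.4% were higher by this measure and 14.2%, 17%, 15% and 16.1% lower. No thrombin receptor gene found was called.

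F13a1, the gene of the catalytic subunit of factor XIII and known from macrophages and platelets, was higher at 9 h by 1.57 (SE 0.30, adjusted p = 0.00218) and at 24 h by 2.19 (SE 0.46, adjusted p = 0.00690). It thus rose at times when F13b, its plasma carrier, was below vehicle without being called. Anxa2, which encodes annexin A2, a cell surface protein that binds plasminogen, was lower at 3 h by -0.91 (SE 0.057, adjusted p = 3.85e-07) and at 6 h by -0.64 (SE 0.099, adjusted p = 0.000711). By 24 h it was higher, by 2.52 (SE 0.25, adjusted p = 0.000172), with 13.42, 11.64, 12.48, 12.35 and 12.30 after APAP and 9.90, 9.95, 9.84, 9.99 and 9.92 after vehicle. The marker lists of monocytes and macrophages described beside Plaur were also higher at 9 and 24 h, and their part in F13a1 and Anxa2 was not tested.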

How the data were processed

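Total liver RNA from 45 mice was hybridized to Affymetrix arrays, 1 array per mouse. The deposited log2 values were made by the authors with RMA (affy 1.64.0, R 3.6.1) on BrainArray probe sets, version 24, so that each Entrez gene has 1 value. Symbols came from a second deposited table, whose 45 value columns could not be tied to single mice and were not used. Groups followed the labels. Each contrast was fitted with limma 3.58.1 in R 4.3.3 on its own 10 arrays, and differences of the APAP effect between times on 40 arrays, with Benjamini-Hochberg adjustment over 18180 genes and the study's own thresholds. Intervals are 95% intervals of the moderated fit. The fit was tested on simulated data. Each group held 5 arrays, and p-values weigh a difference against the spread between mice, which limma moderates over all genes. For differences of the APAP effect between times, that spread was shared over the 40 arrays. Every member is named, and values for each mouse are given for genes called at 2 or more times or with the largest rise or fall at a time. The members and the lists were chosen with earlier results of these data known. The wider pathway list is given mainly by counts, and 1 gene was left out of it and is not reported here. Alternatives were a stricter threshold, 1 model over all arrays, other moderation, array weights, a filter on dim genes, re-centred arrays, a replicate block and leaving out arrays.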

Additional observations from a re-analysis of the deposited data

Results flagged for a closer look

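In 22 of the 279 groups of 5 values (31 genes in 9 groups), 1 mouse stood apart from the other 4 by more than Dixon's 95% critical value, where chance gives about 1 in 20. For the genes that were called, these were Thbd in untreated replicate 2 (8.54), Plaur in APAP replicate 5 at 6 h (7.99), Klkb1 in vehicle replicate 2 at 6 h (11.99) and Thbs1 in untreated replicate 5 (5.83).

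Replicate 1 of the APAP group at 24 h was the high value for F3 (6.78) and Plat (7.76). Vehicle replicate 3 at 6 h was high for the 3 fibrinogen genes, Fga (14.27), Fgb (14.40) and Fgg (14.45), and APAP replicate 4 at 9 h was low for Fga (14.14). Replicate 1 was high for F2 in the APAP group at 9 h (14.28) and for F5 in that at 6 h (12.74), and it was low for F5 in untreated mice (12.82).

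APAP replicate 5 at 3 h was high for Kng1 (13.19) and Cpb2 (12.80), and untreated replicate 4 was low for Cpb2 (12.70). Plg was low in vehicle replicate 5 at 24 h (13.98) and in APAP replicate 4 at 3 h (14.04). Single values also stood apart for F12 in APAP replicate 3 at 6 h (12.61), Proc in vehicle replicate 4 at 24 h (13.16), Pros1 in vehicle replicate 4 at 9 h (10.45) and Vwf in vehicle replicate 3 at 3 h (6.91). All of these stayed in the comparisons.

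The effect of APAP differed between times by the call, with its 1.5-fold limit, for 2 genes in a test of the difference itself over 40 arrays in limma. Over all genes, 6.03% were called higher and 2.21% lower for 24 h minus 3 h, and 1.74% and 1.24% for 24 h minus 9 h. Short of that fold, at an adjusted p under 0.05, F11, Fgb, Serpinf2, Kng1 and Cpb2 were higher and F8 lower for 24 h minus 3 h. Serpinf2 and Cpb2 were so higher for 24 h minus 9 h. For Procr the log2 effect was 1.63 higher at 24 h than at 3 h, and for F11 it was 0.84 higher at 24 h than at 9 h.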

How the results depend on the processing

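Each called gene was refitted under every alternative, 472 fits in all. The direction was the same in each, and 468 kept the call. The 4 that lost it were those of Serpind1 at 6 h and Klkb1 at 9 h given above, which fell under 1.5-fold. Of 470 refitted counts of called members, 454 stayed within 1.5 times and 16 did not. Leaving out 1 array at a time moved the count called higher at 3 h between 2 and 4, that called lower at 24 h between 0 and 1, and that of vehicle above untreated at 6 h between 0 and 1. For the effect at 24 h minus 3 h it moved the count higher between 1 and 2 and the count lower between 0 and 1, and for 24 h minus 9 h the count lower between 0 and 1. The count lower for 24 h minus 3 h was 1 in 1 model over all 45 arrays and 1 under array weights, and that for 24 h minus 9 h was 1 under array weights. Without APAP replicates 1 and 3 at 24 h, an alternative for these contrasts chosen after seeing the data, the counts were 2 and 1. Same-numbered arrays did not pair, with at most 2 of 5 pairs of a comparison correlated above 0.1. With the replicate block, the counts at 6 h were 4 higher and 4 lower, and no call of a member changed in any comparison. The arrays carry no detection call, so folds of dim genes such as Thbs1 and Procr are uncertain in size.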

Other observations

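Of the wider pathway list, 2 genes were called between vehicle and untreated mice at 2 or more times, where vehicle, feeding and elapsed time cannot be told apart. Serpina10, the gene of an inhibitor that works with protein Z, was higher after vehicle by 0.65 and 0.70 on the log2 scale at 6 and 9 h. Its APAP effect was downward at 3 and 6 h, at an adjusted p under 0.05 by limma but short of the fold required. At 24 h the APAP effect was 0.69 and was called higher. Lman1, which encodes a receptor that carries factors V and VIII out of the endoplasmic reticulum, was higher after vehicle by 0.67, 0.71 and 0.63 at 6, 9 and 24 h, and was not called between APAP and vehicle at any time.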
